A study of Mus musculus with 4 samples.

Results

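Described here are 1496 of 35228 cells in a single-cell RNA-seq study of the Tbx1 lineage. The name anterior second heart field (aSHF) progenitors is a label for these cells, whose markers outside the rule were mixed. The cells were chosen from measured values, so the genes of the rule describe the choice and are not findings. A cell with at least 3000 detected genes and at most 10% mitochondrial UMIs (unique molecular identifiers, each counting 1 captured transcript) was a member if at least 5 of Rgs5, Armh4, Hand2os1, Hand2, Tnc and Isl1 were detected. It also had under 0.25% of its UMIs in the sarcomere genes Tnnt2, Myh7, Myl7, Myl4 and Actc1. At most 2 of the posterior genes Tbx5, Foxf1, Aldh1a2, Osr1 and Wnt2 were allowed, and no UMI of the epithelial gene Epcam or the endothelial gene Cdh5. The members numbered 356 in cHet Rep1, 217 in cKO Rep1, 422 in cHet Rep2 and 501 in cKO Rep2, and values below follow that order of libraries.

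The second heart field is mesoderm of the pharynx that adds cells to the lengthening heart tube. Its anterior division feeds the outflow tract and right ventricle, its posterior division feeds the inflow and atria, and Isl1, Mef2c, Nkx2-5, Tbx1 and the ligands Fgf8 and Fgf10 act in it while the cells remain undifferentiated. Kmt2d encodes a histone H3 lysine 4 methyltransferase that works at enhancers. Signals of the FGF, BMP, Hedgehog, Wnt and retinoic acid pathways set when such progenitors stop dividing and begin to make sarcomeres.

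All embryos were taken at embryonic day 9.5 and carried 1 Tbx1 Cre allele, inserted into the coding region of Tbx1, so that both genotypes were heterozygous for Tbx1. The strain is outbred SwissWebster per the labels, whereas the methods give a mixed C57BL/6 and Swiss Webster background for the mice unless stated otherwise. The embryos carried a GFP F/+ reporter, by which living cells of the lineage were sorted from the pharyngeal region and heart. The conditional heterozygote (cHet) was Tbx1Cre/+; Kmt2d F/+; GFP F/+ and the conditional knockout (cKO) was Tbx1Cre/+; Kmt2d F/F; GFP F/+. Each library was a pool of 4 embryos in Rep1 and of 3 in Rep2, so that n = 2 pools per genotype, and the replicates used different capture kits. No embryo with the Cre allele and intact Kmt2d was among the samples, and cHet is therefore the reference throughout.

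The libraries held 179454146 to 234726019 UMIs, and 6238 to 12587 cells each were kept. In cHet Rep1 the kept cells took 65.8% of the UMIs, against 96.1% to 97.2% in the other libraries, and 37093 barcodes had been deposited for it. The paper lists fewer cells for cHet Rep1 than the 6238 kept here. For each of the other libraries it lists as many cells as barcodes were deposited. Replicates stood apart more than genotypes did: the first principal component of the members' summed counts separated Rep1 from Rep2 and took 80.1% of the variance. No member barcode was shared between libraries. Called doublets made up 8.71%, 10.1%, 6.398% and 4.99% of members, and they were kept unless said otherwise.

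Beyond the rule, Nkx2-6, Mef2c, Fgf10 and Nkx2-5 were higher in the members than in the other cells of every library, Fgf8 was not, and Tbx1 was lower. Levels are CPM, the counts of a gene scaled to a fixed total of counts, from the summed UMIs of all members of a library, against the same sum over all other kept cells. Nkx2-6, a homeobox gene of the pharyngeal mesoderm, stood at 18.9, 20.3, 35.2 and 33.1 CPM in the members and at 4.7, 1.7, 5.8 and 5.9 in the others. Mef2c, which encodes a transcription factor that opens cardiac and outflow programmes, stood at 247.7, 241.6, 401.9 and 453.8 CPM against 103.3, 74.6, 116.6 and 117.3.

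Fgf10 and Nkx2-5 were placed in the same way. Fgf10, the ligand by which this field was first drawn, had 64.9, 61.4, 81.6 and 94.8 CPM in members against 31.1, 26.5, 52.0 and 56.7 in the other cells. For Nkx2-5, a core cardiac homeobox gene, the members had 11.996, 8.8, 31.5 and 34.4 CPM and the others 4.9, 2.0, 9.1 and 7.9. Fgf8 did not separate the cells, with 11.996, 9.1, 19.4 and 18.8 CPM in members and 19.8, 8.6, 16.03 and 22.5 elsewhere.

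Tbx1 itself was lower in the members of every library, at 62.0, 44.1, 37.2 and 35.6 CPM against 79.1, 77.2, 66.9 and 61.2 in the other cells of its lineage. If every cell were reduced to 5000 UMIs, 23.2%, 16.7%, 15.96% and 15.4% of members would be expected to show a Tbx1 UMI, against 29.5%, 28.7%, 26.1% and 24.1% of the others. The same expectation for Nkx2-6 was 10.0%, 9.87%, 14.9% and 14.4% of members and 1.92%, 0.688%, 2.13% and 2.15% of the others. Without that reduction 30.1%, 28.6%, 35.1% and 32.9% of members showed Nkx2-6, at a median depth per cell of 17607 to 24939 UMIs. All these levels are a description of chosen cells, and no test was made of them.

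Of the rule's own genes, Rgs5, a regulator of G protein signalling, separated the cells widely, with 178.6, 170.1, 298.6 and 473.1 CPM in members and 9.7, 4.5, 14.2 and 17.1 elsewhere. Isl1, which encodes a LIM homeodomain factor of cardiac progenitors, stood at 162.8, 171.1, 328.4 and 368.2 CPM against 52.7, 44.5, 98.3 and 100.7. Nearly the same Isl1 level, 193.9, 209.1, 319.6 and 368.1 CPM, was found in the 187 posterior second heart field cells, those that met the other terms but held at least 3 of the 5 posterior genes. Both groups of cells were chosen with Isl1 among the rule's genes, so this likeness is partly set by the choice. Nkx2-6, outside the rule, was lower in the posterior cells of every library, at 9.0, 4.6, 3.2 and 3.6 CPM. Nkx2-5 was the reverse, at 43.2, 20.1, 85.8 and 88.8 CPM in the posterior cells.

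The edge of the rule was soft. All 6 rule genes were detected in 54.8%, 50.2%, 65.9% and 61.3% of members, and 145, 93, 141 and 144 cells fell just outside with 4 of them. Nkx2-6 stood at 10.5, 10.2, 27.6 and 10.3 CPM in the cells with 4 genes, at 18.7, 17.7, 29.2 and 21.9 in members with 5, and at 19.0, 22.7, 38.0 and 39.8 in members with 6. Tbx1 went the other way, at 75.2, 56.3, 50.3 and 39.002 CPM with 4 genes and 57.8, 48.96, 33.3 and 32.4 with 6. With 5 genes it had 67.7, 38.7, 45.6 and 41.1, which in the cKO libraries did not lie between those values. Fgf10 was higher just outside than with 6 genes in 3 of 4 libraries, at 71.4, 54.3, 98.6 and 109 CPM against 61.7, 71.6, 84.5 and 95.1. On the posterior side 14, 6, 32 and 23 cells were left out because they held exactly 3 posterior genes. No posterior gene was detected in 71.3%, 68.2%, 65.9% and 66.9% of members, and 2 were in 8.43%, 8.76%, 13.5% and 11.4%. The sarcomere ceiling had few cells near it, with 1, 0, 9 and 4 members between 0.20% and 0.25%.

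**Figure D1:**
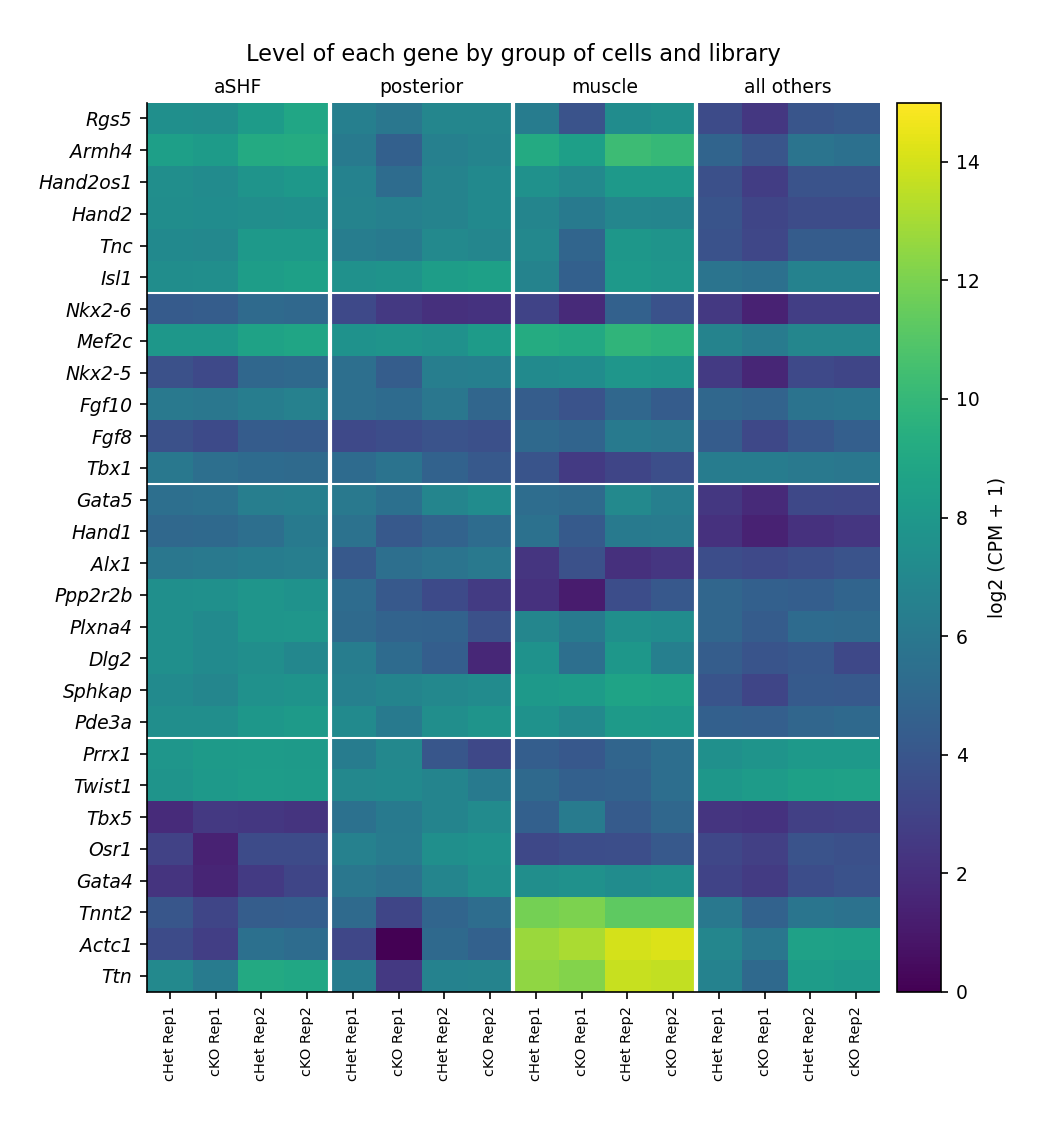
Level of each gene, as log2 of CPM plus 1, in the aSHF members, the posterior second heart field cells, the cardiac muscle cells and all other kept cells, with 1 column per library. White lines part the rule's genes, the anterior genes, further genes high in members, and genes of other cell types. Nkx2-6 and Ppp2r2b are highest in the members, Tbx1 is lower in them than in all others, and Actc1 and Ttn reach their top in cardiac muscle.

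Cardiac genes outside the rule were among those that set the members apart. Genes outside the rule with at least 20 CPM were ranked by the log2 ratio to the other cells in the library where it was smallest. With median ratios in parentheses, the first 15 included the cardiac transcription factors Gata5 (3.24) and Hand1 (3.53). The cardiac kinase Mylk3 (3.24), the cell junction gene Ctnna3 (2.87) and the phosphodiesterase Pde3a (2.92) were also among them. These genes were not particular to progenitors: in the 445 cardiac muscle cells, defined by at least 1% sarcomere UMIs, Ctnna3 reached 599.7 to 1414.8 CPM, against 163.0 to 281.4 in members.

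Ppp2r2b was high in members and low in both neighbouring cell types, and Plxna4 was low in the posterior cells. The first, a regulatory subunit of a protein phosphatase, had 177.5, 180.8, 222.1 and 200.2 CPM in members, 38.2, 17.04, 9.5 and 5.0 in posterior cells, and 3.3, 1.2, 10.6 and 16.4 in cardiac muscle. Plxna4, a semaphorin receptor, had 175.5, 141.0, 225.8 and 230.8 CPM in members and 12.2 to 35.2 in posterior cells, but 70.8 to 177.6 in cardiac muscle. Alx1, a homeobox gene of cranial mesenchyme, had 60.3, 66.5, 77.3 and 84.1 CPM in members against 10.7, 9.1, 11.1 and 13.3 in all others.

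Mesenchymal genes were not absent from these cells. Prrx1 stood at 233.3, 284.0, 305.1 and 282.8 CPM in members and 180.2, 217.9, 277.1 and 268.9 elsewhere, and Twist1 at 220.6, 265.7, 312.1 and 295.4 against 241.5, 295.9, 362.0 and 379.3. The 10 facial mesenchyme markers summed to 896, 1032, 1135 and 1068 CPM in members and 830, 942, 1117 and 1086 in the other cells, higher in members in 3 of 4 libraries by a small margin.

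Posterior second heart field and venous pole genes summed higher in members of every library, at 1875, 1909, 2246 and 2424 CPM against 1349, 1350, 1709 and 1802. The rule limits 5 of these genes. Sarcomere and calcium handling genes were higher too, at 1890, 1613, 3329 and 3213 CPM against 1853, 1162, 2650 and 2539. Markers of cell types other than these and facial mesenchyme were lower in members than in the other cells of each library, with small exceptions. The rule allowed no UMI of Cdh5 or Epcam, so the endothelial and epithelial sums are partly set by it. Endothelial markers summed to 77.9, 75.1, 144.2 and 151.1 CPM in members against 247 to 390 elsewhere. Branchiomeric muscle markers summed to 440, 481, 485 and 478 against 971 to 1292, and red blood cell markers to 12.7, 8.5, 2.5 and 7.1 against 89 to 902. Epithelial markers stood at 112, 146, 126 and 141 CPM in members against 205, 127, 172 and 231, lower in 3 of 4 libraries. Neural crest markers (305, 316, 332 and 296 against 364, 376, 299 and 299) were higher in the members of cHet Rep2. Liver and visceral endoderm markers summed to 8.9, 6.9, 2.3 and 5.7 CPM. The neuronal list gave 40.9, 72.8, 35.7 and 13.1 CPM in members, a spread that touches some results below.

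The members were not uniform. Each member was weighted by the chance that a draw of 5000 of its UMIs would hold a UMI of a chosen gene, and the weighted mean CPM was set against that with the complementary weight. Genes were ranked by the log2 ratio of the weighted means in the library where it was smallest, so genes high in that ranking have 1 direction in all 4 libraries by their choice. For Nkx2-5, 6.17%, 4.85%, 12.8% and 13.8% of members were expected to show a UMI. The T-box gene Tbx20 went with it, at 87.8, 121, 158 and 211 CPM in the Nkx2-5 weighted members and 12.9, 20.5, 30.9 and 46.7 in the rest. Acta2, smooth muscle actin, followed with 199, 264, 482 and 553 CPM against 64.3, 48.7, 218 and 211. Isl1 was also higher, by a log2 ratio of 0.64 to 0.92, while Hand2 differed by 0.01 to 0.28.

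Other genes were lower with Nkx2-5. Epha3, an ephrin receptor, stood at 26.2, 32.3, 8.0 and 16.8 CPM in the Nkx2-5 weighted members and at 116, 118, 137 and 123 in the rest. Twist1 had 101, 134, 89.1 and 101 CPM against 222, 271, 322 and 314, and Alx1 28.8, 26.3, 30.9 and 36.0 against 67.2, 70.4, 81.8 and 90.8. Ppp2r2b, among the most characteristic genes of the members as a whole, was likewise lower, at 34.2, 63.8, 39.0 and 47.2 against 206, 203, 252 and 239.

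In members weighted toward Fgf10, the related ligand Fgf8 had 21.4, 27.2, 40.8 and 43.7 CPM against 10.3, 5.3, 12.4 and 9.1. Hhip, which binds Hedgehog ligands, had 54.4, 36.5, 99.8 and 117 CPM against 16.2, 10.1, 28.6 and 35.7. Msx2, a homeobox target of BMP signalling, was lower at 9.7, 14.3, 15.6 and 20.03 against 39.1, 46.3, 47.3 and 74.8. The Wnt antagonist Dkk1 was lower too, at 7.1, 16.9, 20.8 and 25.0 against 42.9, 44.2, 80.0 and 92.4.

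The same was done with Nkx2-6 and Tbx1. With Nkx2-6 went Mef2c (409 to 710 CPM against 237 to 446) and Myocd, a coactivator of muscle genes (101 to 281 against 42.9 to 134), and against it Epha3, with log2 ratios of -2.09 to -1.52. With Tbx1 went the growth factor Nrg1 (77.7 to 133 against 49.5 to 62.3) and Fgf10, with log2 ratios of 0.26 to 0.66, and against it Hand1 (15.97 to 45.6 against 46.6 to 80.2) and Bmp5 (70.5 to 85.1 against 109 to 146). Isl1 was nearly level between the Tbx1 weights, with log2 ratios of -0.02 to 0.17. These ratios were not tested, since the members and the weights come from the same cells.

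**Figure D2:**
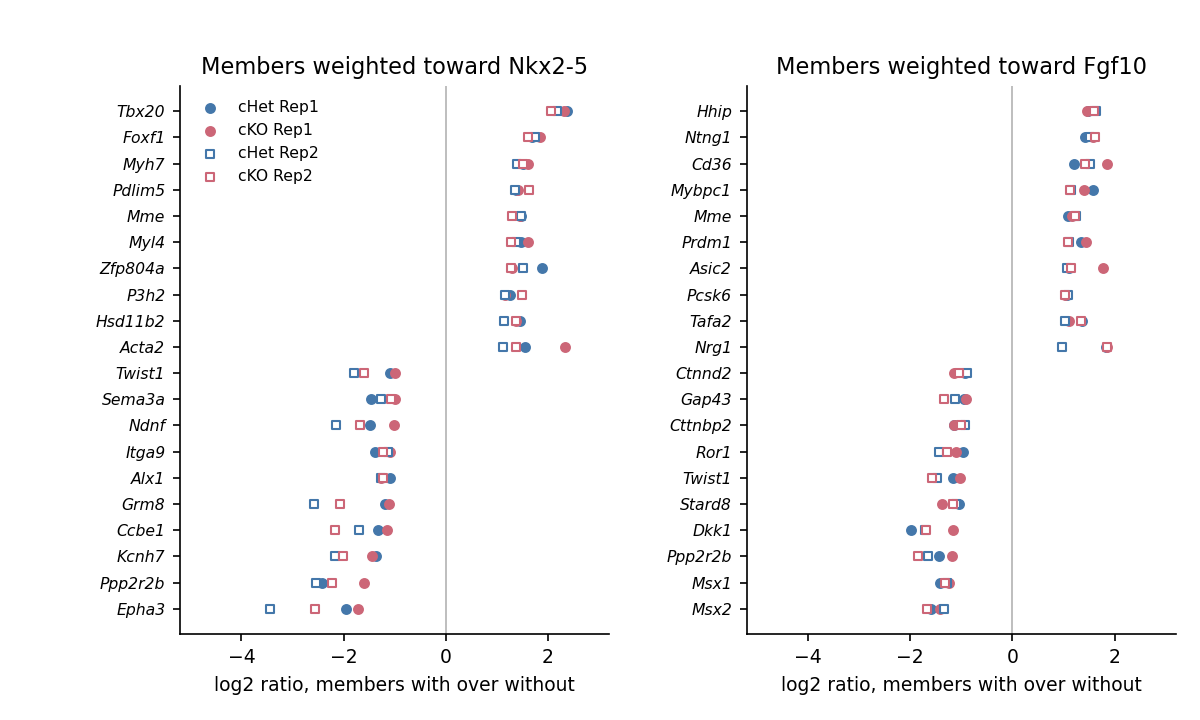
Log2 ratio of CPM (plus 5) between members weighted toward a UMI of Nkx2-5 (left) or Fgf10 (right) and members with the complementary weight. Shown are the 10 genes per direction whose excess or deficit was largest in the library where it was smallest. Points are the 4 libraries. Tbx20 leads the Nkx2-5 side and Epha3 the opposite side, and with Fgf10 the ratio of Msx2 lies between -1.67 and -1.35.

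With each member at 5000 UMIs, S phase genes took a median of 0.46%, 0.48%, 0.58% and 0.54% of a member's UMIs, and G2/M genes 0.83%, 0.86%, 0.94% and 1.00%. The S phase value was higher in cKO in Rep1 and lower in Rep2. The G2/M share was spread more widely in Rep2, where its 10% and 90% quantiles were 0.32% and 1.9% in cHet and 0.30% and 2.0% in cKO, than in Rep1 (0.40% and 1.5%, and 0.47% and 1.4%).

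The comparison of cKO with cHet asked which genes of these progenitors depend on the second copy of Kmt2d in embryos that already lack a copy of Tbx1. First, the share of members among kept cells was 5.71% (95% Wilson interval 5.16 to 6.31) in cHet Rep1 and 3.26% (2.86 to 3.71) in cKO Rep1. In Rep2 it was 4.33% (3.94 to 4.75) and 3.98% (3.65 to 4.34). The ratio of cKO to cHet was thus 0.571 (0.484 to 0.674) in Rep1 and 0.919 (0.810 to 1.04) in Rep2, and the intervals cover counting of cells only. The shares were lower in cKO in both replicates, but in Rep2 by less than the counting error.

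With 2 pools against 2, an exact two-sided permutation test cannot give a p below 0.333, and no other test of the share was run. Asking for all 6 rule genes gave ratios of 0.524 and 0.855. With 4 or more they were 0.580 and 0.887 (0.794 to 0.990 in Rep2, past the counting error). When the rule was applied to cells thinned to 5000 UMIs, they were 0.523 and 1.11, so that the direction in Rep2 turned. The rule asks for detection of some genes and absence of others, so a cell's chance of being counted can move with its depth. Members of cKO were deeper in Rep1 (24939 against 20917 median UMIs) and shallower in Rep2 (17607 against 21870.5). The part in these ratios of depth, or of the larger set of barcodes deposited for cHet Rep1, was not tested.

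**Figure D3:**
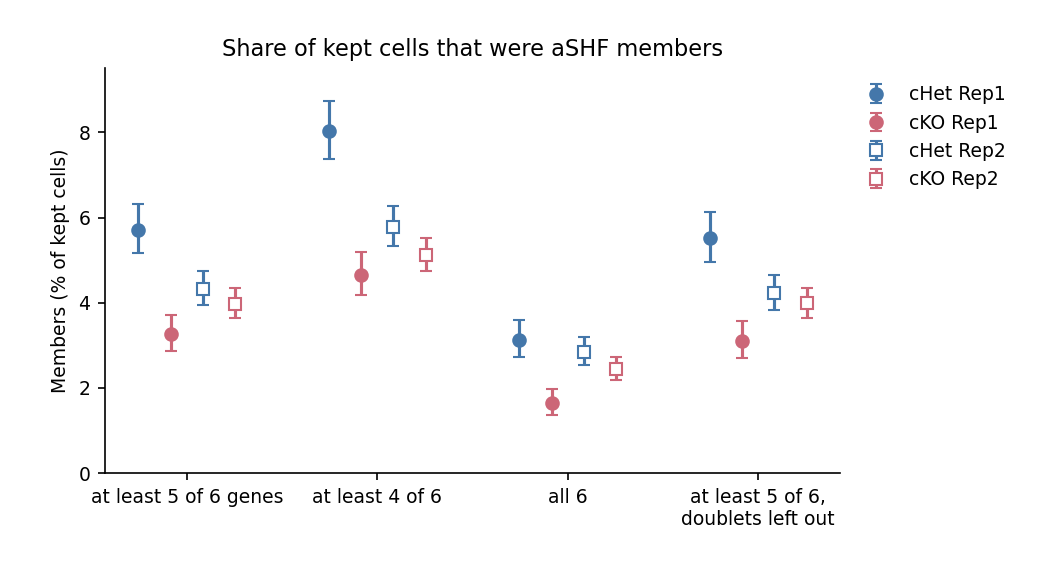
Members as a percentage of kept cells in each library, under the rule as stated (at least 5 of 6 genes), a looser and a stricter count of rule genes, and with called doublets left out. Points are single libraries and bars 95% Wilson intervals. The cHet Rep1 point at 5.71% lies above cKO Rep1 at 3.26%, and the Rep2 points of 4.33% and 3.98% have overlapping bars.

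Kmt2d (chromosome 15: 98831669 to 98871204, minus strand, GRCm38) was level between the genotypes in the members, at 18.4, 19.2, 19.6 and 19.9 CPM. From here on, levels and folds between genotypes use CPM scaled by TMM (trimmed mean of M values). These UMIs are read near the 3′ end of the transcript, and the position of the floxed exons is not given in the sources used here, so the value is no check of the genotype. Its log2 fold change of cKO over cHet was 0.04 ± 0.12 (SE, 2 pools per genotype). At the same stage the paper found Kmt2d depleted by RT-qPCR in cKO against Tbx1Cre/+ embryos. In its single-cell data the paper saw no noteworthy change of Kmt2d between the genotypes.

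No gene of the members passed an adjusted p of 0.05 in edgeR's quasi-likelihood test blocked on replicate with p adjusted by Benjamini-Hochberg, of 13453 genes tested (0% called). At an unadjusted p under 0.05 stood 556 genes, 258 higher in cKO (1.92% of genes) and 298 lower (2.22%), together 4.13% of genes. DESeq2 also called 0 and had 32 genes under that unadjusted value, 19 higher and 13 lower. In edgeR more genes were higher than lower with DESeq2's size factors (293 and 264), no filter (490 and 406) or doublets left out (337 and 298). The same held with 4 or more rule genes (379 and 321) or cells thinned (242 and 223), but not with all 6 (245 and 278). The absolute log2 fold change was under 0.25 for 83.0% of genes and past 1 for 0.743%, with a median of -0.0050. A p here measures the spread between pools, with 1 residual degree of freedom among the 4 libraries before edgeR's sharing of information over genes.

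Of the genes higher in cKO in both replicates none passed the test, and the 10 with the smallest p among those of at least 5 CPM are given here. Tafa2, which encodes a secreted chemokine-like protein (chromosome 10: 123263996 to 123741204), had the smallest p, with 68.6, 105.6, 81.7 and 115.9 CPM. The cKO pool was above the cHet pool in each replicate and the groups did not overlap. Its log2 fold change was 0.56 ± 0.07 (adjusted p = 0.215, edgeR). Asking for 4 or more of the rule genes, which takes in the cells just outside, gave 0.21. Tafa2 was not higher in the other cells of the cKO library in Rep1 (60.01 and 58.4 CPM of summed UMIs in cHet and cKO), and was so in Rep2 (64.1 and 80.0).

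Stard8, a GTPase-activating protein, had 35.6, 48.7, 24.4 and 36.9 CPM, a log2 fold change of 0.53 ± 0.10 (edgeR adjusted p = 0.541). The neurotrophin receptor Ntrk3 stood at 12.9, 19.9, 25.1 and 36.2 CPM, and the adhesion molecule Ntm at 25.5, 33.6, 21.0 and 31.7. The adhesion receptor Adgrb3 stood at 99.1, 126.6, 53.0 and 63.9 CPM, a difference of 0.31. Each was higher in cKO within its replicate, while the Ntrk3 and Adgrb3 levels of the replicates differed more than those of the genotypes.

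Low genes and Gm49692 made up the rest of the 10 with the smallest p. Frmpd4 rested on 65, 79, 113 and 189 UMIs, and the glutamate receptor gene Grik1 on 65, 101, 42 and 68. Galntl6 had 61, 120, 80 and 115 UMIs and Zfp804b 29, 63, 64 and 95. Their log2 fold changes were 0.81, 0.98, 1.03 and 1.05, in that order. With cells thinned to 5000 UMIs that of Frmpd4 was 0.46 and that of Galntl6 0.45. With a library left out Grik1 ran from 0.18 to 1.64 and Galntl6 from 0.60 to 1.49. Galntl6 was detected in 7.87%, 10.6%, 8.77% and 8.38% of members. Gm49692, a processed transcript on chromosome 12, stood at 26.5, 46.1, 19.95 and 27.6 CPM, a difference of 0.63. The other cells, by summed UMIs, also had more of it in cKO, with 33.5 CPM in cHet Rep1, 56.03 in cKO Rep1, 29.6 in cHet Rep2 and 42.6 in cKO Rep2.

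Genes lower in cKO in both replicates included a target of FGF signalling, a fatty acid carrier and muscle genes, and again none passed. Etv4, an ETS transcription factor that FGF signals induce (chromosome 11: 101769742 to 101785371), had 19.9, 12.1, 19.5 and 12.5 CPM from 158, 69, 212 and 126 UMIs. Both cKO pools lay below both cHet pools. Its log2 fold change was -0.67 ± 0.13 (edgeR adjusted p = 0.559). Fabp5, a fatty acid binding protein, was the most abundant of the named genes at 794.8, 664.1, 508.1 and 341.7 CPM, a log2 fold change of -0.42 ± 0.08.

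Dlg2, a scaffold protein that the members carried at many times the level of other cells, had 201.0, 162.9, 148.5 and 109.8 CPM (chromosome 7: 90476672 to 92449247). The log2 fold change was -0.37 ± 0.07 (edgeR adjusted p = 0.541). The other cells were also lower in cKO, at 20.2 and 13.9 CPM of summed UMIs in Rep1 and 16.5 and 8.6 in Rep2. Cardiac muscle cells had 196.2, 43.2, 248.7 and 87.4 CPM of summed UMIs, against 176.9, 146.0, 167.7 and 122.2 in members. The high level was thus not particular to the members, and Dlg2 was among the genes called in the comparison of responses with cardiac muscle below. Lgr5, a receptor for R-spondins, was low at 10.7, 5.1, 8.5 and 4.8 CPM, a difference of -0.94. The folate enzyme Mthfd1 (-0.42) and the carboxypeptidase Cpq (-0.43) were lower in both replicates.

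Muscle genes stood beside them, namely Dmd, which encodes dystrophin, at 24.7, 16.9, 34.8 and 25.96 CPM, Flnc, which encodes filamin C, at 22.5, 14.9, 35.5 and 27.5, and the sodium-calcium exchanger Slc8a1 at 99.6, 91.6, 186.1 and 111.6. Their log2 fold changes were -0.47, -0.45 and -0.47. The netrin receptor Dcc had 145, 61, 102 and 57 UMIs, a difference of -0.75. It was detected in only 5.9%, 9.22%, 6.16% and 3.99% of members, so that in Rep1 the share with a UMI was higher in cKO. By summed UMIs it had 6.3 to 16.1 CPM in members and 81.6 to 134.4 in the other cells, where it was higher in cKO in both replicates. Whether a few cells carried the difference in members was not tested.

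**Figure D4:**
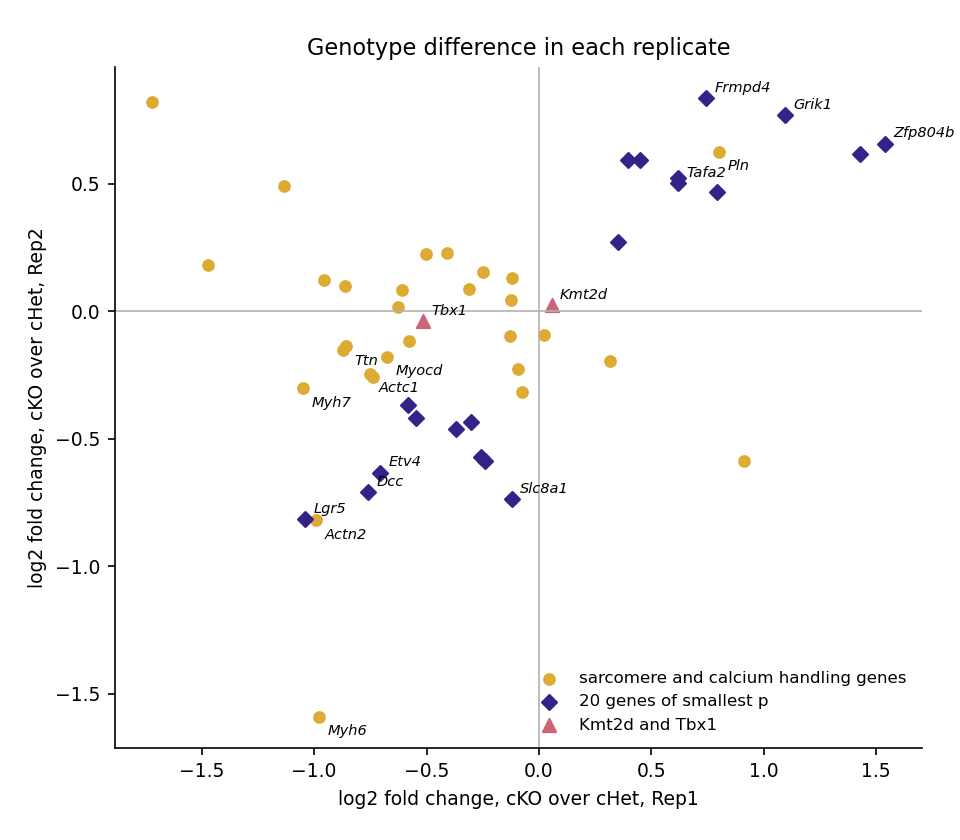
Log2 fold change of cKO over cHet in Rep1 (horizontal) and Rep2 (vertical) for the sarcomere and calcium handling genes, the 20 genes with the smallest p, and Kmt2d and Tbx1. The 20 genes lie at the upper right or lower left by their choice. Most sarcomere genes lie left of the vertical line and near the horizontal one, and none passed the test.

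The sarcomere and calcium handling list leaned lower in cKO. Of 30 genes tested, 26 were lower and 4 higher, 9 lower and 1 higher at an unadjusted p under 0.05 (over all genes 2.22% lower and 1.92% higher), and 0 passed. The median log2 fold change was -0.20, against -0.0050 over all genes, and it was -0.59 in Rep1 and -0.09 in Rep2. In both replicates 13 genes were lower and 1, Pln, higher (over all genes 26.1% lower and 23.5% higher). The rule holds a ceiling on Tnnt2, Myh7, Myl7, Myl4 and Actc1 in every library, so those levels are partly set by it. The summed level of the list was also lower in cKO in the other cells, at 1853 and 1162 CPM in Rep1 and 2650.5 and 2539 in Rep2, against 1890.4 and 1613 and then 3329 and 3213 in members.

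Ttn, the giant spring of the sarcomere, had 148.0, 81.6, 478.9 and 435.7 CPM, a log2 fold change of -0.86 in Rep1 and -0.14 in Rep2. Myocd stood at 71.2, 44.5, 134.3 and 118.7 CPM, with -0.68 and -0.18. For both genes the gap between replicates was wider than that between genotypes. Myh7 (18.4, 8.8, 49.2 and 39.8 CPM) and Actc1 (11.1, 6.5, 41.0 and 34.6 CPM) had the same shape. Actn2 rested on 35, 12, 78 and 40 UMIs with -0.92, and Myh6 on 10, 3, 44 and 12 UMIs. Pln, an inhibitor of the calcium pump, was higher on 16, 21, 41 and 60 UMIs. No UMI of the atrial gene Nppa was in any member.

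Transcription factors of the second heart field did not share a direction over the replicates. Of 25 tested, 19 were higher and 6 lower in cKO, with medians of -0.07 in Rep1 and 0.19 in Rep2, and 0 passed. Isl1 stood at 185.0, 190.9, 290.7 and 330.8 CPM scaled by TMM, Mef2c at 281.4, 269.6, 355.7 and 407.7, and Nkx2-6 at 21.5, 22.7, 31.2 and 29.7. None of these genotype gaps reached the gap between replicates.

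Hand1 (37.7, 38.0, 38.6 and 62.8 CPM) and Tbx20 (21.7, 22.0, 35.9 and 54.1 CPM) were level in Rep1 and higher in cKO in Rep2 only, with unadjusted p of 0.014 and 0.013. Tbx1 had 70.4, 49.2, 32.9 and 32.01 CPM (chromosome 16: 18580979 to 18590671, minus strand). It was lower in cKO in Rep1 and level in Rep2, a log2 fold change of -0.28 ± 0.12 with an unadjusted p of 0.034. Rgs5 was the reverse, at 202.9 and 189.8 CPM in Rep1 and 264.3 and 425.0 in Rep2.

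The pathway lists can be read against the 1.92% of all genes that were higher and 2.22% that were lower at an unadjusted p under 0.05. The 23 FGF genes had 11 higher and 12 lower, of which 2 and 3 at an unadjusted p under 0.05. Etv5, the partner of Etv4, stood at 30.8, 28.7, 33.8 and 26.5 CPM and the inhibitor Spry1 at 12.7, 15.1, 17.5 and 22.3. The ligands Fgf10 (73.7, 68.6, 72.3 and 85.1 CPM) and Fgf8 (13.6, 10.2, 17.2 and 16.9 CPM) had log2 fold changes of -0.10 and 0.24, and of -0.41 and -0.03, in Rep1 and Rep2.

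Of 34 BMP and TGF-beta genes, 21 were higher and 13 lower, 5 higher and 0 lower at an unadjusted p under 0.05, with a median of 0.02 that ran from -0.09 to 0.13 with a library left out. Bambi, a decoy receptor that BMP induces, had 122.8, 141.7, 200.2 and 256.8 CPM, a difference of 0.29 ± 0.07. Msx2 had 33.6, 39.2, 34.5 and 52.4 CPM, a difference of 0.44 ± 0.11. Both were higher in cKO in each replicate, and for Msx2 both cKO pools lay above both cHet pools.

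The 55 guidance and adhesion genes had 35 higher and 20 lower, with 11 higher and 3 lower at an unadjusted p under 0.05 (over all genes 1.92% and 2.22%) and a median of 0.07. Among them the adhesion molecule Alcam had 47.2, 57.7, 68.7 and 84.3 CPM, the ligand Efna5 414.5, 485.8, 314.9 and 364.7, and the coreceptor Nrp1 45.8, 55.9, 60.1 and 69.0. Their log2 fold changes were 0.29, 0.22 and 0.24. Ntn1, the ligand of Dcc, was lower on 63, 25, 27 and 13 UMIs. By summed UMIs the list was also higher in cKO in the other cells, at 5406 and 5801 CPM in Rep1 and 7682 and 8371 in Rep2. The members had 5644 and 5801 CPM in Rep1 and 7457.5 and 8088 in Rep2.

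Hedgehog genes (13 tested) had 1 in each direction at an unadjusted p under 0.05, the coreceptor Gas1 at 105.0, 120.8, 85.7 and 104.4 CPM being higher. Wnt genes (36) had 1 higher and 1 lower, Notch genes (16) 1 lower, and retinoic acid genes (18) 2 higher and 1 lower. Of 18 posterior second heart field genes 1 was higher, the retinoic acid synthesis gene Aldh1a2 of the rule. Pharyngeal Hox genes (12) had 1 in each direction. Their medians lay between -0.04 and 0.08. Of the markers of other cell types, 2 of 4 epithelial genes were higher and 1 lower, and 1 neuronal and 1 facial mesenchyme gene lower.

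Among lists of general cell functions, at an unadjusted p under 0.05 (4.13% of all genes), 0 of 43 S phase genes, 0 of 13 heat shock genes, 0 of 21 glycolysis genes, 0 of 19 smooth muscle and actin genes and 0 of 9 subunits of the KMT2C and KMT2D complexes were counted. Kdm6a, the demethylase of those complexes, stood at 95.1, 97.7, 115.5 and 110.9 CPM. Other H3K4 methyltransferases and demethylases had 0 of 18, ribosomal protein genes 2 of 77, oxidative phosphorylation genes 1 of 102, extracellular matrix genes 2 of 48, G2/M genes 2 of 54 and immediate early genes 5 of 22. Among the heat shock genes 12 of 13 were lower in cKO, with a median of -0.07. In both replicates 8 were lower (26.1% over all genes), and the median was -0.098 in Rep1 and -0.0040 in Rep2.

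**Figure D5:**
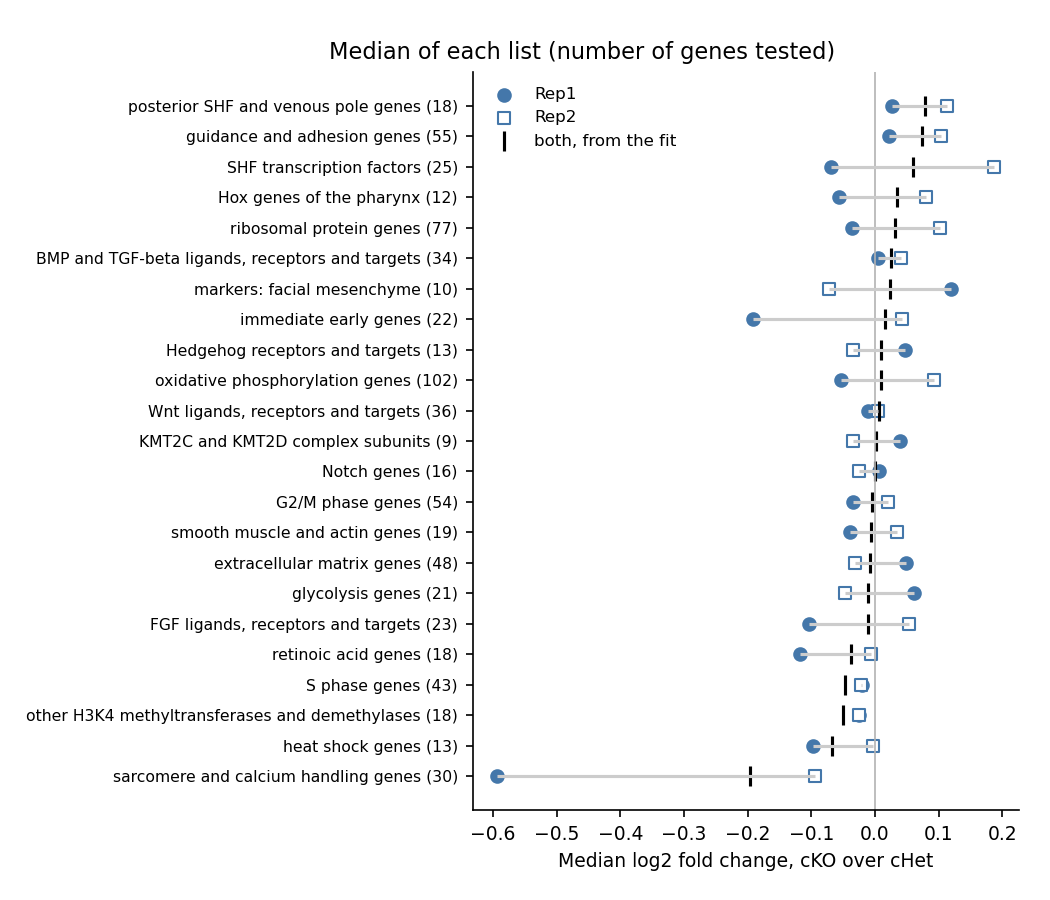
Median log2 fold change of cKO over cHet for each gene list (number of genes tested in parentheses), within Rep1, within Rep2 and from the fit of both. Of the lists shown, sarcomere genes have the lowest median from the fit, -0.20, with -0.59 in Rep1 and -0.09 in Rep2.

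Leaving out the called doublets, 31, 22, 27 and 25 members, changed the count of called genes. edgeR then called 49 of 13222 genes at an adjusted p under 0.05 (0.371%), 28 higher in cKO (0.212%) and 21 lower (0.159%). In the lists fixed for this work, 4 of 30 sarcomere genes fell (Ttn, Myh7, Actc1 and Myocd, of which Myh7 and Actc1 are under the ceiling of the rule), 2 of 34 BMP genes rose (Msx2 and Bambi), and 1 of 23 FGF genes fell (Etv4). Of 13 Hedgehog genes Ptch1, receptor and target of the pathway, fell. In the guidance list Alcam, Pcdh17 and Ntm rose and Ntn1 fell. The netrin receptor Dcc, detected in 3.99% to 9.22% of all members of a library, fell, with a log2 fold change of -1.66 in place of -0.75. Tafa2 (log2 fold change 0.57), Stard8 (0.49), Ntrk3 (0.57), Fabp5 (-0.38) and Dlg2 (-0.34) were also called. Gm49692 (0.73) and Cpq (-0.45) were called too. Of the 20 genes of smallest p, those that moved toward 0 by over 1.5 times, none of them called, had log2 fold changes of 0.46 for Frmpd4, 0.38 for Zfp804b, -0.29 for Lgr5 and -0.22 for Slc8a1.

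The calls of that fit were not all alike in the replicates. Rgs5, a gene of the rule and so not a finding, had a fold change in all members of -0.10 in Rep1 and 0.68 in Rep2. For Ttn, Myh7, Actc1 and Myocd the fold change lay mostly in Rep1. Marker genes of other types were among the calls, with the epithelial keratin Krt8 (24.0, 46.4, 21.3 and 25.4 CPM in all members) and the neuronal gene Neurod1 higher in cKO. Neurod1 had 11, 71, 20 and 2 UMIs in all members, higher in cKO in Rep1 and lower in Rep2. The neuronal list itself moved with the genotype in opposite directions, from 40.9 to 72.8 CPM in Rep1 and from 35.7 to 13.1 in Rep2, and its part in the calls was not tested. In this fit edgeR estimated infinite prior degrees of freedom, against 9.33 with all members, so that it took every gene to vary between pools as the trend does.

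Whether the members responded to genotype unlike their neighbours was tested as an interaction in edgeR. Its p-values lay near those of a normal distribution for a difference over its SE. They thus rested mostly on the trend over genes, and little on a gene's own spread between pools. Against the posterior second heart field cells (32, 12, 74 and 69 cells), 41 of 12569 genes differed in response (0.326%, adjusted p under 0.05), 7 with a larger and 34 with a smaller fold change in the members. Alcam had 46.9, 57.7, 69.7 and 86.2 CPM in members and 34.4, 142.6, 17.3 and 65.1 in posterior cells. The cKO pool was higher in both cell types and replicates, by more in the posterior cells, with a difference of log2 fold changes of -1.67 ± 0.24 (edgeR adjusted p = 1.02e-08). The difference was -0.30 with cells thinned to 5000 UMIs, -0.82 without cHet Rep2 and -0.995 without cKO Rep1, and was called in none of these or without the block.

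Acta2 and Dlg2 went the other way. Acta2 had 75.5, 50.2, 220.7 and 224.5 CPM in members and 77.7, 8.4, 57.8 and 28.4 in posterior cells, the latter from 70, 5, 120 and 44 UMIs, a difference of 1.40 ± 0.25. Dlg2 had 80, 24, 41 and 3 UMIs in the posterior cells, and its difference was 1.34 ± 0.30. With called doublets left out the differences were 1.02 for Acta2 and 1.14 for Dlg2, and neither was called. The Dlg2 difference was 0.053 without cKO Rep2 and 0.35 without cHet Rep1, neither of them called, and 3.85 without cKO Rep1. That of Acta2 was 0.99 without cHet Rep1 and 1.39 without cKO Rep2, neither of them called, and 2.97 without cHet Rep2. Only 12 posterior cells were found in cKO Rep1, and 25% of them were called doublets. Without the replicate block 0 genes were called, with called doublets left out 23, without cHet Rep1 5, without cHet Rep2 18 and without cKO Rep2 121.

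Against cardiac muscle cells (83, 30, 154 and 178 cells), 52 of 13249 genes differed in response (0.392%), 27 with a larger and 25 with a smaller fold change in the members. Among the 52 were Isl1, Rgs5 and Actc1, whose values chose the cells, so these 3 are not findings. Tafa2 had 62.9, 96.5, 77.8 and 110.3 CPM in members and 50.1, 25.8, 66.9 and 37.9 in cardiac muscle. It was higher in cKO in the members and lower in cKO in cardiac muscle in both replicates, a difference of 1.39 ± 0.21 (edgeR adjusted p = 2.02e-07). Hhip had 221, 99, 429 and 518 UMIs in members and 7, 1, 36 and 10 in cardiac muscle, a difference of 1.960 ± 0.50. With cells thinned to 5000 UMIs the differences were 1.71 for Tafa2 and 1.76 for Hhip, and neither was called.

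Neuronal genes led the genes with a smaller response in members, and they rested on 1 library. Nefm, a neurofilament, had 4, 0, 4 and 183 UMIs in cardiac muscle and 77, 163, 158 and 42 in members. The 10 neuronal markers summed to 12.3, 14.4, 11.4 and 84.4 CPM in the cardiac muscle cells, and with called doublets left out the difference of Nefm turned sign. In place of 52 genes, 155 were called without cKO Rep2, 17 without cKO Rep1, and 0 without either cHet library or without the replicate block.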

How the data were processed

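Per the labels, cells sorted for the GFP reporter were captured with a 10x Genomics 3′ kit (Next GEM in Rep1, GEM-X in Rep2). The authors made the deposited UMI counts with Cell Ranger (8.0.1 and mm10 in the submitters' processing notes, 7.0.1 in the Rep1 file headers). Counts per cell were read as deposited, without ambient correction. The rule, 32 gene lists and tests were chosen with earlier results of these data known. Doublets were called per library with Scrublet (scanpy 1.11.5) at a rate set by the kit, because its automatic threshold marked 0.030% to 1.74% of cells, and were kept in the main results.

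Members' UMIs were summed per library, filtered (filterByExpr), scaled by TMM and tested with edgeR 4.0.16 (quasi-likelihood, replicate as block, adjusted p 0.05). In simulated counts 94 of 100 log2 changes of size 1 were called between genotypes. The interactions called 42 of 100 against posterior cells and 54 of 100 against cardiac muscle. Every simulated gene varied as the trend does, so genes that depart from the trend were not covered. Labels give each replicate its own kit, and same-replicate libraries deviated together (correlation 0.773). Named genes were Kmt2d, Tbx1 and the 10 of smallest p per direction with at least 5 CPM and the same sign in both replicates, with list members chosen after their values were seen. Interactions used members and 1 other cell type, naming 5 per direction by size, of which 1 gene is not reported here. Alternatives covered DESeq2 1.42.0, size factors, no filter, no block, each library left out, 4 or 6 rule genes, doublets left out and thinning to 5000 UMIs. Levels against other cells were described without a test. Gene positions came from GENCODE M21 (GRCm38), which held 99.61% of the identifiers. The labels do not tie pools to litters, so p-values measure at most the spread between pools. In the interactions, and in fits with infinite prior degrees of freedom, they rested mostly on the trend over genes.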

Additional observations from a re-analysis of the deposited data

Results flagged for a closer look

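Both interactions gave genes whose response to genotype differed between cell types by a test of the difference itself, edgeR's interaction term with Benjamini-Hochberg adjustment. Against posterior second heart field cells 41 genes did so. The most negative differences of log2 fold changes (members minus posterior cells) were -1.85 for Plcxd3, -1.75 for Zfp536, -1.67 for Pcdh9, -1.67 for Alcam and -1.67 for Plcl1. In the posterior cells Plcxd3 had 7, 30, 8 and 4 UMIs and Zfp536 9, 49, 16 and 7, so that both rested on the 12 cells of cKO Rep1, and Alcam had 31, 85, 36 and 101. The most positive were 0.68 for Ntng1, 0.70 for Arhgap6, 1.10 for Nebl, 1.34 for Dlg2 and 1.40 for Acta2. Without cKO Rep2 the difference was 0.029 for Arhgap6 and 0.053 for Dlg2. With called doublets left out that of Pcdh9 was -0.40 and not called. For Ntng1, Arhgap6, Nebl, Dlg2 and Acta2 the posterior cells of cKO had a lower CPM than those of cHet in both replicates.

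Against cardiac muscle cells 52 genes differed. Neuronal genes St18 (adjusted p = 0.000293), Neurod1 (7.37e-05), Nefm (8.85e-25) and Elavl3 (0.0392) had a library at 0, so no fold is given. St18 had 0, 0, 0 and 21 UMIs in cardiac muscle and 18, 19, 26 and 3 in members, and Elavl3 had 1, 2, 2 and 13 against 33, 37, 16 and 0. In the other direction stood Tafa2 (1.39), Unc5d (1.48) and Hhip (1.960), with Unc5d called in none of the other settings, and 2 genes with a library at 0. These were Etv2, an endothelial transcription factor (adjusted p = 4.58e-05), with 3, 0, 37 and 2 UMIs in cardiac muscle and 80, 8, 127 and 167 in members, not called with doublets left out, and the growth factor Hgf (adjusted p = 0.0145), with 5, 0, 10 and 0. The members held 828, 690, 1368 and 1250 UMIs of Hgf.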

How the results depend on the processing

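Genes called between cKO and cHet in the members numbered 0 with all members, with DESeq2, with its size factors, with 4 or 6 rule genes, with each library left out and without the replicate block. They numbered 49 with doublets left out, 43 with no filter and 4 with cells thinned (Fabp5, Rgs5, Ubb and Zfp804a), 30 genes being shared by the first 2 of these. Rgs5, called in all 3, is a gene of the rule, so its call is not a finding. In all 3 of these fits edgeR estimated infinite prior degrees of freedom, and in its fits with 0 calls a finite number. The 2 doublet alternatives of the interactions were added after the data were seen. In place of 41 differences from posterior cells, separate fits called 24 genes with no filter, 23 without doublets, 1 with thinning, 0 without the replicate block and 5 (without cHet Rep1) to 121 (without cKO Rep2) with a library left out. In place of 52 from cardiac muscle, the numbers called were 1 with thinning, 0 without the block and 0 (without either cHet library) to 155. The share ratio in Rep2 was 1.11 under the thinned rule.

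Directions turned for Kmt2d (-0.020 with 6 rule genes, -0.094 thinned), Actc1 (0.034 thinned), Rgs5 (-0.10 within Rep1), Pcdh9 (0.023 thinned), and without doublets Plcxd3 (0.84), Zfp536 (0.0054) and Nefm (0.10). The cause was not tested. Leaving out 1 library drops the block, so the replicate difference enters by construction. Their log2 ranges crossed 0 for Kmt2d (-0.0026 to 0.10), Tbx1 (-0.79 to 0.30), Adgrb3 (-0.25 to 0.84), Fabp5 (-0.93 to 0.034), Slc8a1 (-0.87 to 0.041), Ttn (-1.94 to 0.82), Myocd (-1.20 to 0.21), Myh7 (-1.94 to 0.44), Actc1 (-2.00 to 0.93), Bambi (-0.18 to 0.71), Ptch1 (-0.66 to 0.24), Alcam (-0.0024 to 0.60), Ntn1 (-1.99 to 0.14), Tbx20 (-0.39 to 0.91), Hand1 (-0.0016 to 0.72) and Rgs5 (-0.29 to 0.86). Among differences they crossed 0 for Plcxd3 (-3.52 to 0.99), Zfp536 (-3.14 to 0.42), St18 (-11.2 to 0.51), Neurod1 (-8.70 to 6.04) and Nefm (-6.73 to 7.16), the last 3 depending on the prior count. The sarcomere median stayed between -0.28 and -0.11 in 8 other settings and ranged from -0.99 to 0.23 with a library left out. Thinning left no gene of the red blood cell and liver lists. The other named genes and differences kept their direction in the settings run, though with a library left out some came near 0, namely Arhgap6 (0.029 to 1.21) and Dlg2 (0.053 to 3.85) among differences, and Ntrk3 (0.064 to 1.14), Efna5 (0.0013 to 0.43), Spry1 (0.0032 to 0.57), Nrp1 (0.056 to 0.46), Flnc (-0.95 to -0.060) and Dlg2 (-0.67 to -0.094) among fold changes. Each named difference lost its call in at least 1 fit with a library left out.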

Other observations

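Sex-linked transcripts had different levels between libraries. In the members Xist stood at 622, 692, 484 and 380 CPM scaled by TMM, and the Y-linked genes Uty at 31.9, 29.2, 35.1 and 53.4 and Eif2s3y at 20.3, 16.9, 17.8 and 33.0. In Rep2 the cKO pool was lower for Xist and higher for both Y-linked genes, and in Rep1 the cHet pool was. None of the 6 genes of this list passed the test between genotypes. Uty was among the 41 genes whose response differed from that of posterior cells (difference -0.999, edgeR adjusted p = 0.0492), and the part of the pools' sex makeup in other differences was not tested.

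Some genes named for genotype also marked kinds of members. Tafa2, higher in cKO in both replicates, had 127, 167, 171 and 241 CPM in members weighted toward Fgf10 and 46.0, 74.8, 81.6 and 92.1 in the rest, so that within either weight the cKO pool was above the cHet pool of its replicate. Stard8, also higher in cKO, was on the other side, with 16.9, 17.02, 12.5 and 19.5 CPM with Fgf10 and 40.4, 52.3, 32.8 and 49.6 without. The expected share of members with an Fgf10 UMI at 5000 UMIs was 20.8%, 17.2%, 24.0% and 25.7%, lower in cKO in Rep1 and higher in Rep2.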
